A study of Mus musculus with 18 samples.

Results

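The effect of intravenous immunoglobulin (IVIg, pooled immunoglobulin G given by infusion) on monocytes was measured in mice that carry the FcgRIIb knockout, by comparing the 3 IVIg libraries of that genotype with its 3 PBS (phosphate-buffered saline) libraries. These 6 libraries were chosen by their genotype and treatment labels out of 18 in the series. All 6 mice were labelled FcgRIIb knockout, their cells were sorted as monocytes from the spleen, and RNA was taken on day 3. Strain background, age, sex, IVIg dose and the deleted part of Fcgr2b are not given in the sources used here, and the deletion is carried by the PBS mice as well as the IVIg mice. The other 12 libraries came from C57BL/6 wild-type (WT) and Dectin-1 knockout mice, 3 with IVIg and 3 with PBS in each genotype, and entered the model that sets the spread between mice. PBS replicates 1 and 2 share a code in their titles whose meaning is not given, so that they came from separate mice rests on the series' design text, which states 3 independent mice per group. The title of PBS replicate 3 shares its code with that of WT IVIg replicate 3.

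FcgRIIb is the inhibitory Fc gamma receptor of myeloid cells and B cells: when immune complexes crosslink it, its cytoplasmic inhibitory motif recruits phosphatases that dampen signals from the activating receptors FcgRI, FcgRIII and FcgRIV, which signal through the common gamma chain. IVIg is used against autoimmune and inflammatory disease, and in mouse models FcgRIIb has been one of the receptors needed for its effect. Spleen monocytes are a mixture of classical cells with high Ly6C and CCR2 and non-classical patrolling cells with low Ly6C that depend on Nr4a1. In such bulk samples, fewer cells of a type and less RNA per cell cannot be told apart.

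The libraries differed in depth and in shape. The IVIg libraries held 22895716, 32394278 and 37541295 counts, and the PBS libraries 28524553, 719494 and 30214955. PBS replicate 2 is called the shallow library here. The floor of 3 counts lay at 4.17 CPM (library-scaled counts) there and at 0.0799 to 0.131 CPM elsewhere, and 2.80% of its counts were mitochondrial, against 0.754% to 1.23%. IVIg replicate 1 and PBS replicate 3 leaned to short transcripts, with a Spearman correlation of -0.65 across genes between a gene's deviation from the mean of the libraries and its length, against 0.00 to 0.28 in the other 4. Those 2 libraries, from different treatments, resembled each other (Spearman 0.965 across genes) more than either resembled its own group (0.872 and 0.893 for IVIg replicate 1, and 0.639 and 0.818 for PBS replicate 3). Monocyte markers were abundant in all 6 libraries: Csf1r, the receptor for colony-stimulating factor 1, stood at 2189, 2314 and 2486 CPM with IVIg and at 2603, 1425 and 1837 CPM with PBS. No gene of the monocyte identity list was called, and its 12 genes had a median log2 fold change of -0.08.

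No gene passed the test. Of 17040 genes tested with edgeR's quasi-likelihood test, 0 (0%) had a Benjamini-Hochberg adjusted p under 0.05, and the smallest adjusted p was 1. At an unadjusted p under 0.05 there were 304 higher genes (1.78%) and 239 lower genes (1.40%), 543 together, against 852 for a uniform spread of p-values. Without PBS replicate 2 the test again called 0 of 18068 genes, with a smallest adjusted p of 0.963, and counted 360 higher (1.99%) and 377 lower (2.09%) at an unadjusted p under 0.05. The median log2 fold change over all genes was 0.01, and 51.1% of genes lay above 0. DESeq2 called 13 genes, of which 12 were lower with IVIg and had their highest CPM in PBS replicate 2, and called 2 genes without that library. Since a miss of the threshold does not show that the groups were alike, the sizes below are given as measured values with their standard errors (SE), and log2 fold changes are IVIg minus PBS.

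The receptor that the mice lack by label came first. Fcgr2b (ENSMUSG00000026656, chromosome 1, 170786186 to 170804116, GRCm39) had 234, 129.9 and 156 CPM with IVIg and 138, 249.9 and 187 CPM with PBS. The groups overlapped, with the highest and the lowest library in opposite treatments. The log2 fold change was -0.07 ± 0.25 (SE) with all libraries and 0.08 ± 0.25 without PBS replicate 2. In the WT and Dectin-1 knockout libraries the gene ranged from 208 to 318 CPM, so transcript remained in the FcgRIIb knockout. A count over the whole gene does not show whether the deleted exons were transcribed.

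Among the activating receptors, Fcgr4, which encodes FcgRIV and is typical of non-classical monocytes, had 190.1, 187 and 114 CPM with IVIg and 64.4, 167 and 103 CPM with PBS. Only the shallow PBS library reached into the IVIg range. The log2 fold change was 0.75 ± 0.41 (SE) with all libraries and 0.96 ± 0.43 without PBS replicate 2 (edgeR adjusted p = 0.963). Fcgr1, the high-affinity receptor, had 172, 138 and 139 CPM with IVIg and 146, 109 and 233 CPM with PBS. Fcgr3 had 512, 298 and 367 CPM with IVIg and 336, 408 and 545 CPM with PBS. Fcer1g, the common gamma chain, had 1131, 589 and 607 CPM with IVIg and 554, 1153 and 817 CPM with PBS. For these last 3 genes the groups overlapped, and the log2 fold changes were -0.20 ± 0.26, -0.14 ± 0.23 and -0.09 ± 0.32 (SE). Clec7a, which encodes the beta-glucan receptor Dectin-1, had 861, 625 and 648 CPM with IVIg and 530.2, 956 and 742 CPM with PBS.

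Of the 28 tested genes of Fc gamma receptor signalling 0 were called in either direction, 1 was higher and 0 were lower at an unadjusted p under 0.05, and the list's median log2 fold change was 0.03. Without PBS replicate 2, 2 were higher and 0 lower at that threshold, and the median was -0.05. The shares over all genes were 1.78% higher and 1.40% lower, and 1.99% and 2.09% without PBS replicate 2. The 1 higher gene with all libraries was Vav3, a guanine nucleotide exchange factor, with 45.5, 72.5 and 72.6 CPM with IVIg and 44.6, 4.24 and 31.5 CPM with PBS. Its lowest IVIg library lay just above its highest PBS library, and its shallow PBS value rests on 3 counts. The log2 fold change was 0.86 ± 0.28 (SE), and 0.74 ± 0.25 without PBS replicate 2. Among inhibitory receptors and phosphatases (0 of 21 called), Lair1, a collagen receptor with inhibitory motifs, had 131, 154 and 115 CPM with IVIg and 64.6, 112 and 80.6 CPM with PBS. Its groups did not overlap, and the log2 fold change was 0.77 ± 0.31 (SE), and 0.87 ± 0.32 without PBS replicate 2. The same gene had a log2 fold change of 0.74 in WT mice and -0.16 in Dectin-1 knockout mice.

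**Figure D1:**
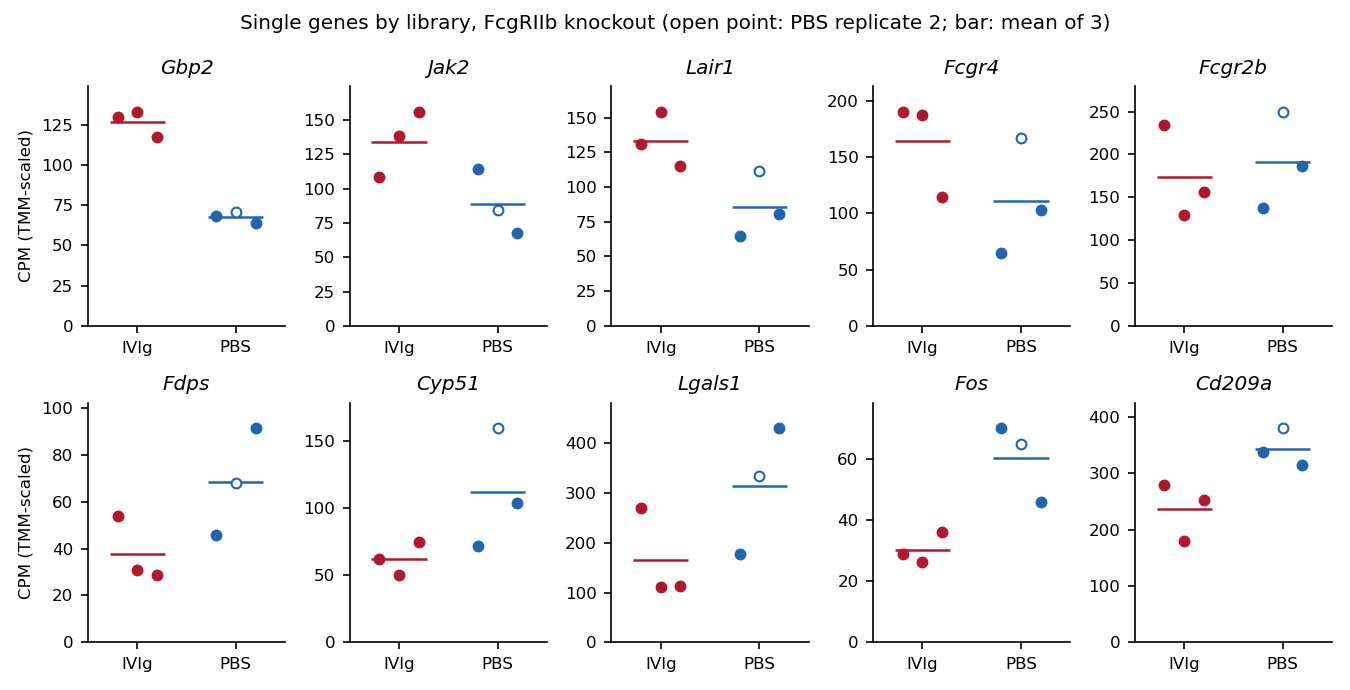
Normalised expression (CPM, vertical axis from 0) of 10 genes in each FcgRIIb knockout library, IVIg at left and PBS at right, with the mean of 3 libraries as a bar and the shallow PBS replicate 2 as an open point. Gbp2, Lair1, Fos and Cd209a show no overlap between the groups, Gbp2 with 117 to 133 CPM with IVIg and 64.2 to 70.6 CPM with PBS, while Fcgr2b overlaps.

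The smallest unadjusted p among the members of the gene lists that were higher with IVIg was that of Gbp2, a guanylate-binding protein. Guanylate-binding proteins are GTPases induced by interferon gamma that attack vacuoles holding microbes and promote inflammasome activation. Gbp2 (ENSMUSG00000028270, chromosome 3, 142326363 to 142343769, GRCm39) had 129.8, 133 and 117 CPM with IVIg and 68.1, 70.6 and 64.2 CPM with PBS, a mean of 127 ± 8.37 CPM with IVIg and 67.6 ± 3.22 CPM with PBS (SD, n = 3 each). The groups lay far apart relative to their own spread, and the shallow library, with 50 counts, lay close to the other PBS libraries. The log2 fold change was 0.92 ± 0.22 (SE; edgeR unadjusted p = 0.000403, adjusted p = 1), and 0.93 ± 0.22 without PBS replicate 2. Over the 19 other settings tried it lay between 0.72 and 0.99, and the smallest adjusted p was 0.0694, from DESeq2. With 3 libraries against 3, an exact permutation test of 1 gene cannot go below p = 0.1. The log2 fold change of Gbp2 was -0.20 ± 0.20 (SE) in WT mice and -0.14 ± 0.20 in Dectin-1 knockout mice. The difference of the effects was 1.13 ± 0.29 against WT (edgeR unadjusted p = 0.00107, adjusted p = 0.99997) and 1.06 ± 0.29 against the Dectin-1 knockout (unadjusted p = 0.00177, adjusted p = 0.99997). Levels in the other 2 genotypes ranged from 65.8 to 128 CPM, so the PBS libraries of the FcgRIIb knockout sat at the low end of that range and the IVIg libraries near or above its high end.

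Gbp2, Gbp3 and Gbp5 lie near each other on chromosome 3, and their promoters are shown because Gbp2 had the smallest p of the higher list members. The genes were not tested against each other. The sequences are the RefSeq windows of 250 bases before to 50 bases after the start, on GRCm38.p6, an older build than the GRCm39 of the counts. Capitals mark matches to the interferon-stimulated response element core (GAAANNGAA) or the gamma-activated site (TTCNNNGAA), searched on both strands.

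Gbp2, chr3:142620413-142620712, plus strand: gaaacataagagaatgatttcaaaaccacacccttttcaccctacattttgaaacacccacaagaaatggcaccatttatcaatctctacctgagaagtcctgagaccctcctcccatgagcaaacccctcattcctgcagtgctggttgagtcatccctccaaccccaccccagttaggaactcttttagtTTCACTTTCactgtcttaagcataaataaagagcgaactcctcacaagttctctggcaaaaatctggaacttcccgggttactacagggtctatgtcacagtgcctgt
Gbp3, chr3:142559794-142560093, plus strand: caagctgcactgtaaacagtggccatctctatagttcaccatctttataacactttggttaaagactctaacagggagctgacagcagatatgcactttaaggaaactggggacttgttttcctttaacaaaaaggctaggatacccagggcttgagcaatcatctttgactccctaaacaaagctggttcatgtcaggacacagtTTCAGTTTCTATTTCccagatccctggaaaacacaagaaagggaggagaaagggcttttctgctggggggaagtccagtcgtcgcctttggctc
Gbp5, chr3:142496684-142496983, plus strand: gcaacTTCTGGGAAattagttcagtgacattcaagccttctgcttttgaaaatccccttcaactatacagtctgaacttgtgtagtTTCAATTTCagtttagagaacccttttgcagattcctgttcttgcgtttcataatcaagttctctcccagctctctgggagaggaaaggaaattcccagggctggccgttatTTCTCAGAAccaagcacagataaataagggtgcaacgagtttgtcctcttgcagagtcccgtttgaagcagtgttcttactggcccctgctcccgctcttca

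The Gbp2 window held 1 response element match, which began 58 bases before the start, and no gamma-activated site match. The Gbp3 window shown held 2 overlapping response element matches, a second Gbp3 window (chr3:142560106-142560405) held 0 matches of either kind, and the Gbp5 window held 1 such match and 2 gamma-activated site matches. The window of Gbp7, on the same chromosome, also held 1 response element match and 2 gamma-activated site matches, and Gbp7 stood at 8.63, 21.9 and 22.1 CPM with IVIg and at 15.6, 36.7 and 6.99 CPM with PBS, with an overlap. Across all 32851 promoter windows 8.56% held the response element core and 8.30% the gamma-activated site. Of the 19 windows kept for 17 of the 25 genes in the interferon gamma list, 12 held the first and 7 the second. Any windows on chromosome 18 were left out of this count. Gbp3 stood at 117, 93.6 and 96.4 CPM with IVIg and at 67.9, 76.2 and 95.7 CPM with PBS, a log2 fold change of 0.34 ± 0.23 (SE). Gbp5 stood at 26.9, 33.0 and 27.9 CPM with IVIg and at 29.7, 116 and 16.3 CPM with PBS, and without the shallow library, the highest of the 6, its log2 fold change was 0.34, against -0.07 with it. A match describes letters in the window and not a bound site.

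The wider interferon gamma list leaned the same way without a call. Of its 25 genes, 0 were called, 19 had a positive log2 fold change (20 without PBS replicate 2), and the median was 0.34 (0.32 without PBS replicate 2), against 0.01 over all genes. At an unadjusted p under 0.05, 3 members were higher and 0 lower, against 1.78% higher and 1.40% lower over all genes. Beside Gbp2 the higher members were Jak2, the kinase of the interferon gamma receptor, and Tgtp1, a T-cell-specific GTPase. Jak2 had 108, 139 and 156 CPM with IVIg and 114, 84.7 and 67.9 CPM with PBS, with an overlap of 1 library each. Tgtp1 was low, at 1.68, 2.02 and 2.64 CPM with IVIg and at 1.19, 0 and 0.193 CPM with PBS, and its reads may be shared with the near-identical Tgtp2. The median deviation of the list was 0.11, 0.45 and 0.28 on the log2 scale in the IVIg libraries and 0.09, -0.30 and -0.20 in the PBS libraries, so the lowest IVIg and the highest PBS library nearly met. In WT mice the list's median log2 fold change was -0.10, with 7 of 25 genes positive, and in the Dectin-1 knockout it was 0.09, with 15 positive. For the difference of the effects against WT, 3 of the 25 had an unadjusted p under 0.05, where the background was 487 of 17040 genes (2.86%), and 0 (0%) were called. Against the Dectin-1 knockout 1 of the 25 did, close to the background of 710 of 17040 genes (4.17%), and 0 (0%) were called.

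The type I interferon-stimulated genes lay close to 0. Of 47 tested, 0 were called and 0 had an unadjusted p under 0.05 in either direction, and the median log2 fold change was 0.08. Ifit2, an antiviral protein, had 86.6, 111 and 74.1 CPM with IVIg and 81.4, 102 and 48.8 CPM with PBS. Among Toll-like receptors and adapters (0 of 27 called), Unc93b1, the chaperone that carries nucleic-acid-sensing Toll-like receptors to endosomes, had 865, 758 and 708 CPM with IVIg and 575, 347 and 641 CPM with PBS. The groups did not overlap. The log2 fold change was 0.54 ± 0.22 (SE), and 0.34 ± 0.19 without PBS replicate 2.

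Markers of non-classical monocytes were higher on balance with IVIg, again with no single call. Of 29 genes, 25 had a positive log2 fold change with all libraries and 25 without PBS replicate 2, with a median of 0.40 and 0.42. At an unadjusted p under 0.05, 3 were higher and 0 lower, against 1.78% higher and 1.40% lower over all genes. Of the 29, 4 lay wholly above the PBS range. The background among genes of at least 10 CPM was 260 of 8627 higher (3.01%) and 124 lower (1.44%). In the labelled WT mice the median was 0.69, with 28 of 29 positive, and in the Dectin-1 knockout it was -0.16, with 6 of 29 positive. For the difference against the Dectin-1 knockout, 8 of the 29 had an unadjusted p under 0.05, against 710 of 17040 genes (4.17%), and 0 (0%) were called. For the difference against WT 1 of 29 did.

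Tgm2, the tissue transglutaminase, had 116, 182 and 129.9 CPM with IVIg and 89.1, 72.0 and 78.5 CPM with PBS. Its groups did not overlap, and the log2 fold change was 0.80 ± 0.35 (SE), and 0.76 ± 0.39 without PBS replicate 2. Dusp16, a phosphatase of stress-activated kinases, had 112, 152 and 143 CPM with IVIg and 92.2, 97.4 and 68.8 CPM with PBS. Cd300e, an activating receptor of the CD300 family, had 184, 242 and 173 CPM with IVIg and 155, 117 and 116 CPM with PBS. Treml4, a receptor of the TREM family that binds dead cells, had 317, 321 and 241 CPM with IVIg and 211, 210.4 and 217 CPM with PBS. For these 4 genes every IVIg library lay above every PBS library. Bcl2, the survival factor, had 14.7, 55.7 and 26.3 CPM with IVIg and 21.04, 5.65 and 11.5 CPM with PBS, with an overlap.

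For some non-classical genes the value moved when PBS replicate 2 was left out. Cd36, a scavenger receptor for lipids, had 270.4, 439 and 296 CPM with IVIg and 144, 399.5 and 154 CPM with PBS, so that both deep PBS libraries lay below all IVIg libraries. Its log2 fold change was 0.71 ± 0.45 (SE) with all libraries and 1.16 ± 0.45 without PBS replicate 2. Adgre4, an adhesion receptor of the EGF-TM7 family, had 746, 911 and 805 CPM with IVIg and 492, 1316 and 549 CPM with PBS. Its log2 fold change was 0.12 ± 0.30 with all libraries and 0.65 ± 0.22 without PBS replicate 2. Nr4a1, the transcription factor these cells depend on, had 609, 413 and 401 CPM with IVIg and 504, 158 and 396 CPM with PBS, with an overlap. Its log2 fold change was 0.34 ± 0.30 (SE) with all libraries and 0.06 ± 0.26 without PBS replicate 2. Cx3cr1, the fractalkine receptor, had a negative value. It had 1201, 858 and 864 CPM with IVIg and 1039, 1015 and 1262 CPM with PBS, with an overlap and a log2 fold change of -0.19 ± 0.21 (SE). S1pr5, a receptor for sphingosine 1-phosphate that guides exit from tissue, is listed here with the chemokines and their receptors (0 of 23 called). It had 128, 144 and 108 CPM with IVIg and 89.6, 63.5 and 95.2 CPM with PBS, without overlap (log2 fold change 0.53 ± 0.20, SE).

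The classical list leaned lower. Of 23 genes, 4 had a positive log2 fold change (5 without PBS replicate 2), the median was -0.16 (-0.28 without PBS replicate 2), and 0 were called or had an unadjusted p under 0.05 in either direction. F13a1, the A chain of coagulation factor XIII, had 1654, 1200.3 and 1427 CPM with IVIg and 2499, 1865 and 2001 CPM with PBS, without overlap, and a log2 fold change of -0.58 ± 0.32 (SE). Ccr2, the receptor for monocyte exit from bone marrow, had 2067, 1990.0 and 2376 CPM with IVIg and 2254, 3432 and 2617 CPM with PBS. Ly6c2, which gives the Ly6C surface antigen, had 761, 551 and 440.0 CPM with IVIg and 455, 452 and 916 CPM with PBS. The groups overlapped for both, and Ly6c2 was highest in PBS replicate 3. By library, the median deviation of the classical list was 0.18, -0.28 and -0.24 on the log2 scale with IVIg. With PBS it was -0.18, 0.17 and 0.37, with an overlap.

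**Figure D2:**
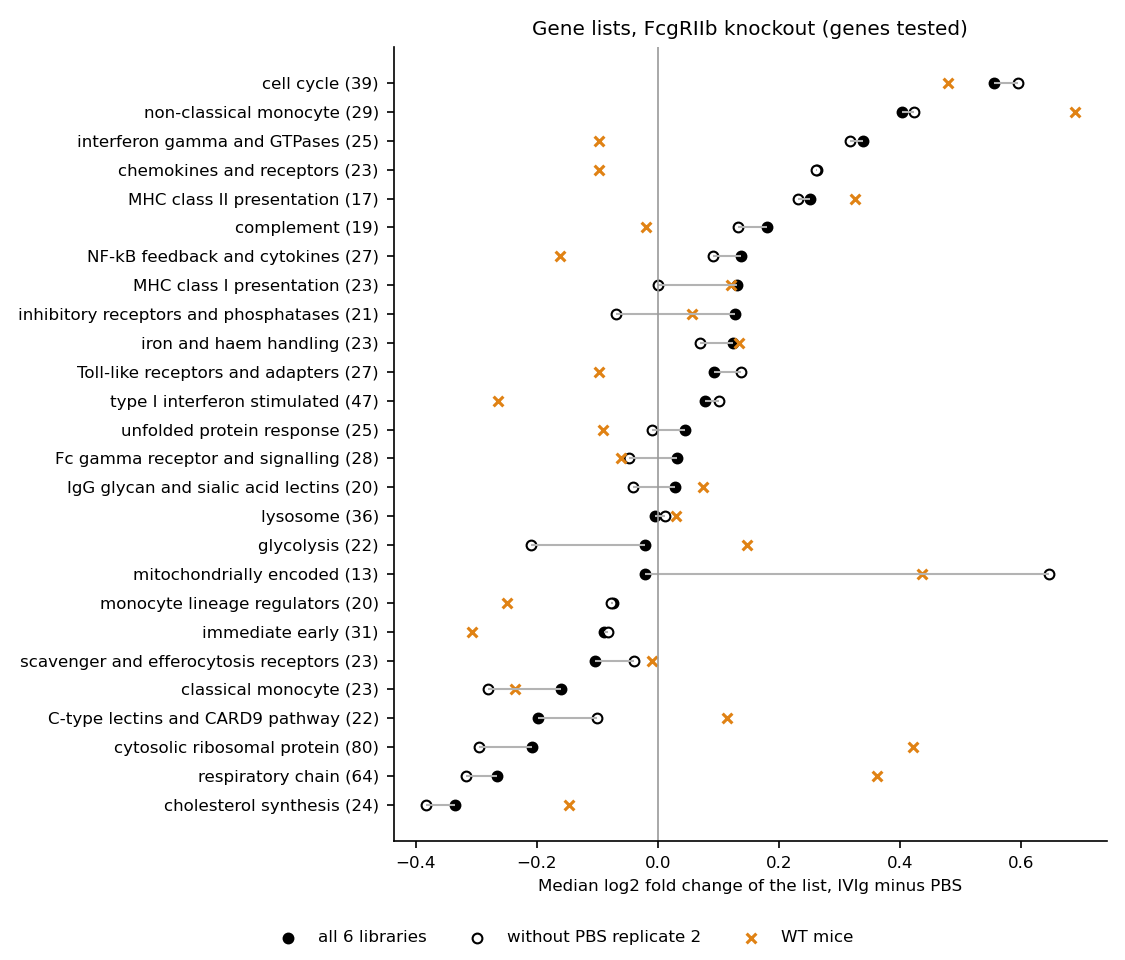
Median log2 fold change of IVIg minus PBS (horizontal axis) for 26 gene lists, with the number of genes tested in brackets, for all 6 FcgRIIb knockout libraries (filled), for the same without PBS replicate 2 (open) and for WT mice (crosses). Cholesterol synthesis lies lowest at -0.33 and cell cycle highest at 0.56, and the mitochondrially encoded genes move most when PBS replicate 2 is left out, to 0.65 from -0.02.

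**Figure D3:**
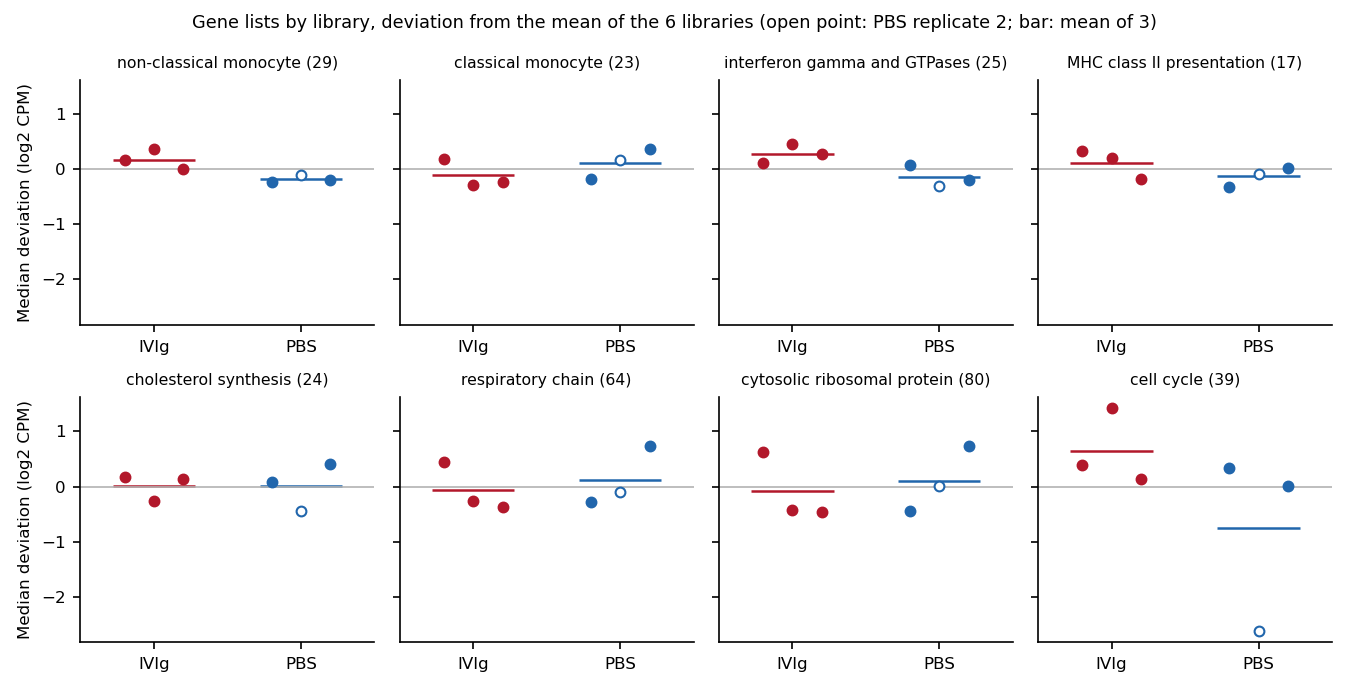
Median deviation of 8 gene lists from the mean of the 6 FcgRIIb knockout libraries (log2 CPM, vertical axis), IVIg at left and PBS at right, with the shallow PBS replicate 2 as an open point and the mean of 3 libraries as a bar. The 3 non-classical values with IVIg lie above the 3 with PBS, whereas IVIg replicate 1 and PBS replicate 3 stand at 0.44 and 0.74 for the respiratory chain and the other 4 libraries below 0.

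Genes of cholesterol synthesis were lower on balance. Of 24 genes, 5 had a positive log2 fold change (2 without PBS replicate 2), the median was -0.33 (-0.38 without PBS replicate 2), and 0 were called. At an unadjusted p under 0.05, 5 were lower and 0 higher, against 1.40% lower and 1.78% higher over all genes. Without PBS replicate 2 also 5 were lower, against 2.09% over all genes. Idi1, the isopentenyl diphosphate isomerase, had 10.5, 6.42 and 9.65 CPM with IVIg and 12.4, 12.7 and 15.1 CPM with PBS. Sqle, the squalene epoxidase, had 28.6, 15.8 and 27.2 CPM with IVIg and 32.7, 52.2 and 44.1 CPM with PBS. Neither overlapped, and the log2 fold changes were -0.64 ± 0.27 for Idi1 and -0.74 ± 0.33 for Sqle (SE). Fdps, the farnesyl diphosphate synthase, had 53.8, 31.0 and 28.7 CPM with IVIg and 45.7, 67.8 and 91.3 CPM with PBS, with an overlap. Cyp51, the lanosterol demethylase, had 62.1, 50.3 and 74.96 CPM with IVIg and 71.9, 159.5 and 103.5 CPM with PBS, and its log2 fold change was -0.67 ± 0.28 with all libraries and -0.49 ± 0.27 without PBS replicate 2. Dhcr7, the last reductase of the pathway, had 16.4, 12.7 and 11.9 CPM with IVIg and 22.7, 0 and 23.3 CPM with PBS. The median was -0.15 without PBS replicate 3 and -0.50 without PBS replicate 1. In WT mice the list's median was -0.15. By library, the median deviation of the list was 0.17, -0.26 and 0.14 on the log2 scale with IVIg. With PBS it was 0.07, -0.44 and 0.41, so the groups overlapped, and the shallow PBS library was the lowest.

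The respiratory chain and ribosomal protein lists stood highest in the libraries that lean to short transcripts. Of 64 nuclear genes of the respiratory chain 3 had a positive log2 fold change, with a median of -0.27, and of 80 cytosolic ribosomal protein genes 7 did, with a median of -0.21. None of either list was called or had an unadjusted p under 0.05. The median deviation of the ribosomal list was 0.63, -0.43 and -0.46 in the IVIg libraries and -0.45, 0.01 and 0.74 in the PBS libraries, high in IVIg replicate 1 and PBS replicate 3. Without PBS replicate 3 the medians were 0.24 for the respiratory chain and 0.16 for the ribosomal list, and without IVIg replicate 1 they were -0.59 and -0.65. With both of these libraries left out the medians were -0.06 and -0.21, and with the length trend removed -0.16 and -0.13. The medians in WT mice were 0.36 and 0.42. Over 5049 abundant genes the Spearman correlation of the log2 fold change with gene length was -0.42 in WT mice. In the FcgRIIb knockout it was 0.24. The part of this lean in the medians of either genotype was not tested.

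Antigen presentation by MHC class II leaned higher by a small amount, with 13 of 17 genes positive (11 without PBS replicate 2), a median of 0.25 (0.23 without PBS replicate 2) and 0 called. Cd74, the invariant chain, had 5342, 5062 and 4212 CPM with IVIg and 3988, 3572 and 3082 CPM with PBS, without overlap, and a log2 fold change of 0.46 ± 0.28 (SE). The beta chain gene H2-Ab1 had 2938, 2625 and 2021 CPM with IVIg and 2049, 1753 and 2517 CPM with PBS, with an overlap. By library, the median deviation of the list was 0.33, 0.20 and -0.17 on the log2 scale with IVIg. With PBS it was -0.32, -0.08 and 0.03, with an overlap. Among lectins, Cd209a, a mouse relative of DC-SIGN, had 278, 179 and 253 CPM with IVIg and 337, 379.8 and 314 CPM with PBS. Its groups did not overlap, and the log2 fold change was -0.52 ± 0.23 (SE), -0.47 ± 0.23 without PBS replicate 2, 0.15 in WT mice and 0.20 in the Dectin-1 knockout. Lgals1, a galactose-binding lectin, had 269.5, 111 and 113 CPM with IVIg and 178, 333 and 429 CPM with PBS, with an overlap. Among immediate early genes (0 of 31 called), Fos had 29.0, 26.2 and 36.1 CPM with IVIg and 70.2, 64.9 and 46.1 CPM with PBS, without overlap, and a log2 fold change of -0.95 ± 0.39 (SE). Fos is induced within minutes of handling and stimulation. Its log2 fold change was -0.62 in WT mice and -0.40 in the Dectin-1 knockout. Jun, of the same list, went the other way. It had 23.3, 31.1 and 25.5 CPM with IVIg and 24.6, 4.24 and 12.4 CPM with PBS, with an overlap. The log2 fold change of Jun was 0.59 ± 0.35 (SE), and 0.52 ± 0.35 without PBS replicate 2. Over the immediate early list 13 of 31 genes were positive and the median was -0.09.

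Summed markers of other cell types were measured in the same libraries. The 23 T cell markers summed to 91.2, 113 and 63.9 CPM with IVIg and to 59.5, 46.6 and 47.5 CPM with PBS. The 18 tested of 20 NK cell markers summed to 221, 225 and 260 CPM with IVIg and to 158, 120 and 197 CPM with PBS. For both lists every IVIg library lay above every PBS library, 18 of 23 and 17 of 18 tested genes had a positive log2 fold change, and none was called. The sums of the shallow PBS library rest on 33 counts for T cells and 85 for NK cells. Only 1 of the 23 and 3 of the 18 genes averaged at least 10 CPM. The defining T cell gene Cd3e stood at 0.887, 1.35 and 0.804 CPM with IVIg and at 0.682, 0 and 0.463 CPM with PBS, and the NK receptor gene Ncr1 at 0.592, 0.967 and 0.570 CPM with IVIg and at 0.341, 0 and 0.772 CPM with PBS, all near the floor of detection. The 11 tested of 18 erythroid markers summed to 68.2, 81.3 and 35.8 CPM with IVIg and to 29.6, 25.4 and 37.8 CPM with PBS, and haemoglobin gene Hbb-bs had 26.3, 25.05 and 10.4 CPM with IVIg and 5.97, 25.4 and 5.67 CPM with PBS. The groups overlapped for both. The part of these transcripts in the interferon, MHC class II and monocyte lists was not tested.

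Summed plasma cell and B cell transcripts stood highest in IVIg replicate 2 and the shallow PBS library. The 15 tested of 16 plasma cell markers summed to 1198, 3226 and 1172 CPM with IVIg and to 1346, 2255 and 1298 CPM with PBS. The 23 B cell markers summed to 839, 1583 and 595 CPM with IVIg and to 799, 1478 and 812 CPM with PBS. Of the 15 plasma cell genes 13 had a positive log2 fold change (14 without PBS replicate 2), and 0 were called. Their median was 0.63, 1.17 without PBS replicate 2 and -0.07 with all libraries thinned. At an unadjusted p under 0.05, 4 were higher and 0 lower, against 1.78% higher and 1.40% lower over all genes. The heavy chain gene Ighg2c had 14.7, 42.1 and 7.13 CPM with IVIg and 1.98, 8.47 and 1.853 CPM with PBS, a log2 fold change of 3.39 ± 0.96 (SE). Ighg2b had 6.01, 33.5 and 4.75 CPM with IVIg and 2.49, 0 and 1.54 CPM with PBS, a log2 fold change of 2.91 ± 0.83. Every IVIg library was higher than every PBS library for Ighg2b, whereas the shallow PBS library, with 6 counts, lay inside the IVIg range for Ighg2c. Neither was called, and reads of heavy chain genes may be shared between near-identical segments. In WT mice the log2 fold changes were 3.54 ± 1.35 (SE) for Ighg2c and 4.07 ± 2.49 for Ighg2b, from low and uneven values. The WT IVIg libraries ranged from 0 to 7.06 CPM for Ighg2c and from 0 to 1.31 CPM for Ighg2b. The WT PBS libraries reached at most 0.545 and 0.0482 CPM. Cell cycle genes had 34 of 39 positive and a median of 0.56 (0.59 without PBS replicate 2), with 5 higher at an unadjusted p under 0.05 and 0 called. Over all genes 1.78% were higher at that threshold. Of the 39, 16 averaged at least 10 CPM. Plk1, a mitotic kinase and one of the low ones, had 0.296, 3.90 and 2.10 CPM with IVIg and 0.648, 0 and 0.116 CPM with PBS. The median was 0.19 without IVIg replicate 2, 0.25 with the stricter filter and -0.01 with all libraries thinned to the depth of the shallow one. The list summed to 1083, 1044 and 820 CPM with IVIg and to 879, 843 and 1296 CPM with PBS, so the summed level was highest in a PBS library and the groups overlapped.

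In the remaining function lists 0 genes were called. The median log2 fold change was 0.18 for complement (19 genes), 0.14 for NF-kB feedback and cytokines (27), 0.13 for MHC class I presentation (23) and for inhibitory receptors and phosphatases (21), and 0.12 for iron and haem handling (23). It was 0.04 for the unfolded protein response (25), 0.03 for lectins of IgG glycans and sialic acid (20), -0.01 for the lysosome (36), -0.02 for glycolysis (22), -0.07 for monocyte lineage regulators (20), -0.10 for scavenger and efferocytosis receptors (23) and -0.20 for C-type lectins and the CARD9 pathway (22), where 3 genes (Cd209a, Clec4b1 and Clec12b) were lower and 0 higher at an unadjusted p under 0.05. Over all genes 1.40% were lower and 1.78% higher at that threshold. Without PBS replicate 2 the median was 0.00 for MHC class I presentation, -0.07 for inhibitory receptors and phosphatases, -0.21 for glycolysis and -0.10 for C-type lectins and the CARD9 pathway. Relb, a subunit of the non-canonical NF-kB pathway, had 73.3, 86.4 and 71.3 CPM with IVIg and 64.2, 0 and 56.0 CPM with PBS, and the deep PBS libraries came close to the IVIg range. Cfb, complement factor B, had 47.4, 53.3 and 51.3 CPM with IVIg and 37.6, 12.7 and 34.1 CPM with PBS, without overlap. Ctsc, the cathepsin that activates granule proteases, had 894, 727 and 876 CPM with IVIg and 935, 1444 and 1042 CPM with PBS, without overlap and in the other direction. The chemokine list had a median of 0.26, which was -0.23 with the stricter filter and -0.35 with thinning. It was -0.04 without IVIg replicate 1 and -0.03 with both libraries that lean to short transcripts left out. Among other cell types the medians were 0.22 for red pulp macrophage and for dendritic cell markers, 0.31 for neutrophil, -0.09 for B cell, 0.89 for platelet and 0.05 for basophil and mast cell markers, over 8 to 23 genes each, most of them low.

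Genes of at least 10 CPM on average whose groups did not overlap and whose log2 fold change was at least 1 in size numbered 9 higher and 9 lower, after gene models, antigen receptor segments and sex-linked transcripts were set aside. Of the 9 higher, Tpm3-rs7, Actr3-ps, Eif4a-ps4 and Btf3-ps1 are pseudogenes or related sequences whose reads may come from their parent genes. The other 5 were Trem1, Nr1d2, Asb2, Klf11 and Kit. Trem1, an activating receptor that amplifies inflammation, had 20.3, 18.2 and 20.95 CPM with IVIg and 11.1, 4.24 and 8.22 CPM with PBS, a log2 fold change of 1.06 ± 0.43 (SE), and 1.02 ± 0.46 without PBS replicate 2. Kit, the stem cell factor receptor of progenitors and mast cells, had 26.8, 47.5 and 35.2 CPM with IVIg and 19.1, 24.001 and 9.34 CPM with PBS, a log2 fold change of 1.31 ± 0.50 (SE). Nr1d2, a circadian repressor, had 20.2, 33.3 and 36.9 CPM with IVIg and 13.8, 0 and 12.4 CPM with PBS. Klf11, a zinc finger factor, had 27.0, 30.5 and 40.0 CPM with IVIg and 17.2, 0 and 16.4 CPM with PBS. Asb2, a ubiquitin ligase subunit, had 23.2, 38.1 and 18.8 CPM with IVIg and 12.3, 1.41 and 12.3 CPM with PBS.

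All 9 lower genes had their highest value in the shallow PBS library, and all 9 averaged under 10 CPM over the other 5 libraries. Hoxb4, a homeobox factor of blood progenitors, had 4.39, 3.37 and 4.67 CPM with IVIg and 6.48, 32.5 and 9.999 CPM with PBS. Igfbp4, a binding protein of insulin-like growth factors, had 5.92, 6.18 and 5.76 CPM with IVIg and 10.1, 21.2 and 13.5 CPM with PBS, and its log2 fold change was -1.04 ± 0.42 (SE), and -0.99 ± 0.42 without PBS replicate 2. Porcn, the acyltransferase that modifies Wnt proteins, had 0.0986, 0.205 and 0.285 CPM with IVIg and 1.16, 59.3 and 1.78 CPM with PBS. Nynrin, Hspa1a, Fkbp9 and Ift81 stood at 0.674 to 4.89 CPM with IVIg, and with PBS at 45.2 to 52.2 CPM in the shallow library and at most 9.41 CPM in the deep ones. Grik2, a glutamate receptor subunit, and Adgrb3, a brain adhesion receptor, had at most 0.104 CPM with IVIg, and with PBS 66.4 and 70.6 CPM in the shallow library and at most 0.386 CPM in the deep ones. Otx2, a homeobox factor of brain and retina, was added because DESeq2 called it, once its values were known. It had 0 counts in each IVIg library and 0, 59 and 1 counts in the PBS libraries.

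**Figure D4:**
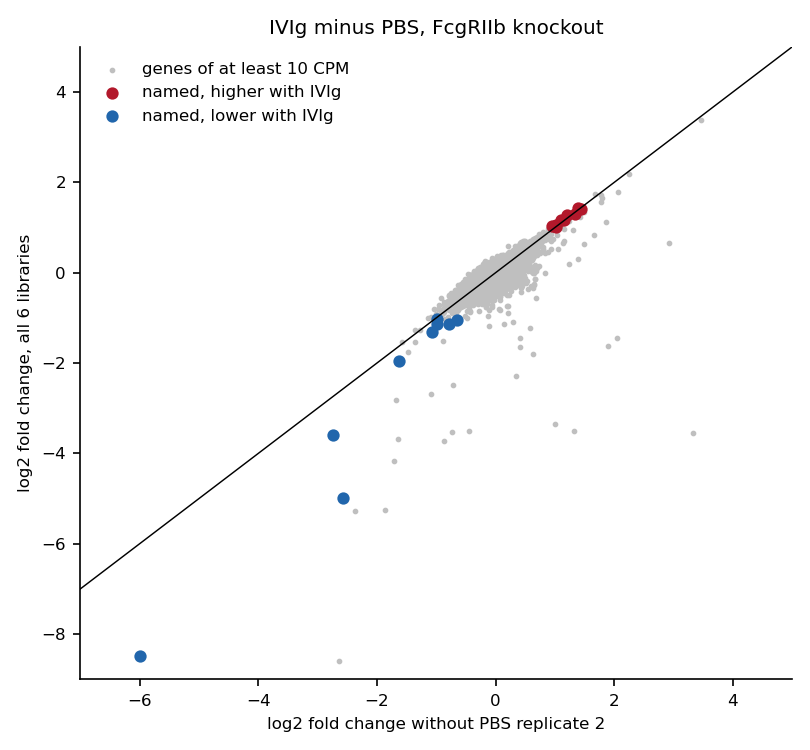
Log2 fold change of IVIg minus PBS with all 6 libraries (vertical axis) and without PBS replicate 2 (horizontal axis) for 8627 genes with a mean of at least 10 CPM, 3 of which lie beyond the axes. The 9 named higher genes lie near the line of equal values, whereas the named lower genes Porcn, Adgrb3 and Grik2 lie below it.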

How the data were processed

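Counts per gene were deposited by the authors as raw counts, made with featureCounts 2.0.2 on Ensembl genes, per the file headers, from reads that STAR had aligned to GRCm39, a step given in the submitters' processing notes. The recorded command sets no strand option and allows reads to count for overlapping genes, so genes that overlap, antisense ones included, share reads. Columns were matched to samples by their titles, and 18 columns that match no sample were not used. Genes passing filterByExpr (17040 of 55416) were normalised by TMM. The 18 libraries in 6 groups were then fitted together in edgeR 4.0.16 under R 4.3.3 and each gene tested by its quasi-likelihood method, with 12 residual degrees of freedom and Benjamini-Hochberg adjustment over all genes tested. The common biological coefficient of variation was 0.516. CPM use TMM-scaled library sizes. SE is the log2 fold change over the root of its F. A floor of 3 counts covers counting error only. The 1492 genes without a symbol, with 0.125% to 0.450% of the counts of each of the 6 libraries, stayed in the totals.

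The libraries, the 37 gene lists and the rules for naming genes were chosen with earlier results of these data known, so no list is independent evidence. Named genes are up to 10 higher and 10 lower with a mean of at least 10 CPM, a log2 fold change of 1 or more in size and no overlap, up to 4 called members of a list or else the 2 with the smallest p, and the Fc receptor genes. Further genes are named as members of the lists, after their values were seen. Promoters came from RefSeq on GRCm38.p6. The scripts were tested on simulated data. DESeq2 1.42.0, limma 3.58.1 voom with quality weights, RLE, other filters, the legacy fit, own libraries only, removal of a length trend, thinning, removal of immunoglobulin, haemoglobin and mitochondrial genes and leaving out each library were the alternatives, with 3 added after the data were seen. Replicate numbers only name libraries. Figures were drawn with matplotlib 3.10.9.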

Additional observations from a re-analysis of the deposited data

How the results depend on the processing

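The count of called genes was 0 with edgeR and limma voom under each setting but 1: without IVIg replicate 3 it was 1 (Igkv1-88), so over the libraries left out in turn it ranged from 0 to 1. DESeq2 called 13 genes, and 2 with the shallow library left out (Map2 and Igsf8). For the difference of effects DESeq2 called 1 gene against WT (Trpm3) and 4 against the Dectin-1 knockout, and 2 against the Dectin-1 knockout with the shallow library left out, where edgeR called 0. The smallest adjusted p of the edgeR tests of the difference was 0.99997 against WT and 0.839 against the Dectin-1 knockout. Genes at an unadjusted p under 0.05 (543) numbered 206 with the stricter filter (9323 genes tested), 270 with the 6 libraries only, 352 with both libraries that lean to short transcripts left out, 1011 with DESeq2, 827 with DESeq2 and the shallow library left out, and from 333 (without IVIg replicate 2) to 1468 (without PBS replicate 1) over the libraries left out in turn, with 822 without IVIg replicate 1. The cause of these moves was not tested.

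Of the list medians under alternatives, 675 stayed within the spread between replicates and 27 moved. The cholesterol, non-classical, classical and interferon gamma medians kept their sign under the 19 settings tried, between -0.50 and -0.15, 0.23 and 0.50, -0.33 and -0.09, and 0.13 and 0.54. Among single genes, the log2 fold changes of 8 named genes reversed their sign in some settings. The main fit gave -1.14 for Rpl39, -0.47 for Nfil3 and -2.14 for Il4. Without the shallow library the values were 0.14 for Rpl39, 0.17 for Fcer1g, 0.084 for Fcgr2b and 0.15 for Clec7a. With the own libraries only and the shallow one left out they were 0.14, 0.17, 0.089 and 0.16 in the same order. With DESeq2 and the shallow one left out they were 0.15, 0.18, 0.094 and 0.16. Over the libraries left out in turn the values lay between -1.81 and 0.14 for Rpl39, -0.46 and 0.17 for Fcer1g, -0.34 and 0.10 for Fcgr2b, -0.23 and 0.15 for Clec7a, -0.38 and 0.10 for Fcgr3, -0.35 and 0.15 for Fcgr1, -0.71 and 0.035 for Nfil3 and -4.92 and 2.79 for Il4. Nfil3 was 0.091 with thinning, Fcgr1 0.049 with both short-leaning libraries left out, and Clec7a 0.011 with the length trend removed and 0.033 with voom. Porcn and Fkbp9 passed the threshold only with DESeq2, at -6.73 and -2.80.

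No paired analysis was possible because the labels give no replicate numbers that tie IVIg libraries to PBS libraries. Depth limits PBS replicate 2, where genes under 4.17 CPM were not measurable, and the main counts are given with and without it above. It also held transcripts that were near 0 in the other libraries, such as Otx2, Grik2 and Adgrb3, and Trpm3 had 14, 3 and 0 counts with IVIg and 5, 71 and 0 counts with PBS. The 9 named lower genes and 12 of the 13 DESeq2 calls had their highest value in this library, and the cause was not tested.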

Other observations

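Mitochondrially encoded transcripts were low in both deep PBS libraries and high in the shallow one. The median deviation of the 13 genes was 0.12, -0.02 and -0.01 on the log2 scale in the IVIg libraries and -0.80, 0.98 and -0.40 in the PBS libraries. Their median log2 fold change was -0.02 with all libraries and 0.65 without PBS replicate 2. In the latter fit 8 of 13 were higher at an unadjusted p under 0.05, against 360 of 18068 over all genes (1.99%). There 12 of 13 were positive, against 9038 of 18068 over all genes. In WT mice the list's median was 0.44 and in the Dectin-1 knockout -0.54. A part played by the depth of that library was not tested.

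Igsf8, an immunoglobulin superfamily protein that partners tetraspanins, had 42.4, 36.7 and 45.1 CPM with IVIg and 69.6, 12.7 and 74.6 CPM with PBS. It was named after its values were seen. Both deep PBS libraries lay above all IVIg libraries and the shallow one below them, and without PBS replicate 2 its log2 fold change was -0.81 ± 0.18 (SE; edgeR adjusted p = 0.963, DESeq2 adjusted p = 0.0344).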
